A study of Solanum pimpinellifolium with 72 samples.

Results

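A set of 78 genes was higher at each of 2 successive developmental steps in young flowers of the wild type (WT), the red-fruited wild tomato relative Solanum pimpinellifolium LA1589. The 78 genes were those of the 34727 in the table whose WT mean of log2(RPKM + 1) was higher by at least 1 at 4 days post floral initiation (dpi) than in the youngest sample, higher by at least 1 again at 6dpi than at 4dpi, and whose WT mean at 6dpi was at least 2 RPKM, where RPKM is a read count scaled to gene length and to the mapped reads of the library. They are 0.225% of the table. The genes were thus chosen by their WT values, so their WT courses are described here without a test, and the question asked of the data was how the same genes behaved in 5 other genotypes whose libraries played no part in the choice.

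A flower bud forms its organs in whorls, and the identity of each whorl is set in Arabidopsis by transcription factors, most of them of the MADS-box family. APETALA3 (AP3) and PISTILLATA (PI) act as a pair in petals and stamens, AGAMOUS (AG) specifies stamens and carpels and ends meristem growth, and APETALA2 (AP2) acts in sepals and petals. As organs enlarge, green tissues build light-harvesting complexes and the carbon-fixing machinery, and the epidermis deposits a waxy cuticle made from very-long-chain fatty acids. Gene names in the text are those of the Arabidopsis homologs listed by the study, with the tomato identifier beside them, and the roles given are known from Arabidopsis.

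The measurements came from 72 strand-specific mRNA libraries, 4 for each of 6 genotypes at 3 stages. The stages were floral and inflorescence meristems pooled with 2dpi buds (F&IM&2dpi), 4dpi buds and 6dpi buds. The study gives LA1589 as the background of WT, lc, fas, lc/fas and RNAi-SlCLV3, and for HC2 it gives the fas background. WT, lc, fas and lc/fas were near-isogenic: lc carries sequence changes downstream of SlWUS, the stem-cell-promoting homeobox gene, fas carries an inversion that breaks the promoter of SlCLV3, the gene for the peptide that restrains it, and lc/fas carries the alleles of lc and fas together. RNAi-SlCLV3 expressed an SlCLV3 hairpin from the CaMV 35S promoter. HC2 was a line in the fas background with an added genomic SlCLV3 copy under its own promoter, so HC2 also carries the fas allele. The labels do not say which of the independent transformants each transgenic library came from. For the mRNA libraries of WT and RNAi-SlCLV3, the study describes inflorescences of 6 plants of a genotype taken in weekly collections. It gives no such account for those of lc, fas, lc/fas and HC2. Replicates may thus share plants, and p-values measure the spread between collections. Reads in genes, in megareads (M), ranged from 2.93 M (WT F&IM&2dpi replicate 3) to 58.6 M, with a median of 19.0 M and 7 libraries under 10 M.

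The stage labels were checked against meristem and floral genes. SlWUS went from group means of 32.1 to 41.9 RPKM at F&IM&2dpi to 2.51 to 9.39 RPKM at 6dpi, and SlCLV3 went from 3.89 to 10.3 RPKM to 0.594 to 0.991 RPKM. The homolog of SHOOT MERISTEMLESS, a gene that keeps meristem cells undifferentiated, went from 189 to 201 RPKM to 41.5 to 77.1 RPKM. Other meristem genes separated the stages less cleanly. The AINTEGUMENTA homolog went from 186 to 200.1 RPKM to 80.3 to 113 RPKM at 4dpi and 90.7 to 105 RPKM at 6dpi. For the AGAMOUS-like 20 homolog, early means of 14.02 to 32.8 RPKM overlapped 6dpi means of 10.2 to 16.3 RPKM. Within each genotype its mean was lower at 6dpi than at F&IM&2dpi, but in lc it rose to 16.6 RPKM at 4dpi. TM5, a MADS-box gene related to SEPALLATA3, went from 20.3 to 50.03 RPKM to 195 to 211 RPKM. Over 33 genes of meristem and organ patterning, none of them at 0, the summed level was 2534 to 3341 RPKM in the early libraries and 1676 to 2084 RPKM in the 6dpi libraries. These samples are bulk tissue, so more cells of a type and more RNA per cell cannot be told apart, and the part of tissue composition in the steps described here was not tested.

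In WT the 78 genes started low. Their median group mean was 1.76 RPKM at F&IM&2dpi, with 28 genes under 1 RPKM, 8.26 RPKM at 4dpi and 26.1 RPKM at 6dpi. Summed over the genes, the level was 502.9 ± 99.0 RPKM, 2276 ± 451 RPKM and 5994 ± 920.3 RPKM (SD, n = 4) at the 3 stages, which is 0.0382%, 0.173% and 0.462% of all RPKM. At 6dpi the genes spanned 4.18 to 769 RPKM. The median step in WT was 1.52 on the log2(RPKM + 1) scale from F&IM&2dpi to 4dpi (the first step) and 1.26 from 4dpi to 6dpi (the second step), and 55 genes had the larger first step.

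Few reads stood behind the early values. The median count was 10 reads per gene and library in WT F&IM&2dpi against 357 reads in WT 6dpi, and in the shallowest library, WT F&IM&2dpi replicate 3, 51 genes had under 10 reads and 16 had none. Several genes sat close to a threshold. The smallest first steps inside were 1.00 and 1.01 and the largest outside were 0.99 and 0.98 among genes that met the other 2 conditions, and for the second step they were 1.000 and 1.007 inside against 0.996 and 0.994 outside. In all, 6 of the 78 lay within 0.1 above the first threshold and 18 within 0.1 above the second, and 11 and 23 other genes lay within 0.1 below. The lowest 6dpi mean inside was 4.18 RPKM and no gene met both steps under 2 RPKM.

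**Figure D1:**
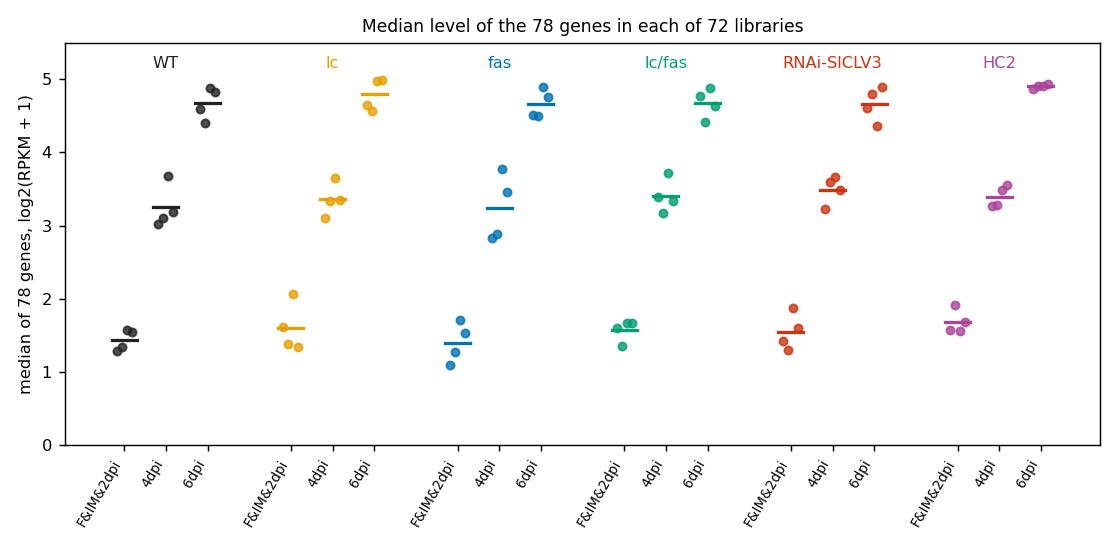
Median of log2(RPKM + 1) over the 78 genes in each of the 72 libraries (points), by genotype and stage, with the mean of 4 libraries as a bar. The medians lie between 1.102 and 2.06 at F&IM&2dpi, between 2.82 and 3.78 at 4dpi and between 4.37 and 4.99 at 6dpi, with no overlap between stages in any genotype.

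Most of the same genes rose in the 5 lines. With limma on the 60 libraries of the lines, 77 of the 78 were called higher at the first step in lc, 77 in fas, 75 in lc/fas, 75 in RNAi-SlCLV3 and 75 in HC2 (Benjamini-Hochberg adjusted p under 0.05), where 13.1%, 12.2%, 11.0%, 10.9% and 11.0% of the 20465 genes tested were called higher. At the second step 73, 75, 71, 59 and 72 of the 78 were called higher in the same order of lines, where 8.99%, 5.79%, 4.84%, 3.26% and 8.02% of all tested genes were. Of the 780 combinations of gene, line and step, 729 were called higher and 0 were called lower. The steps called lower at an unadjusted p under 0.05 also numbered 0. Solyc10g087010 had the fewest steps called, 3 of 10. Its first step, -0.02 to 0.72 (SE 0.43), was called in no line, and its second step was called in 3 lines. The second step missed the threshold in HC2 (adjusted p 0.0586) and RNAi-SlCLV3 (0.0604). With the replicate number as a block in the limma fit, it passed in these 2 lines (0.0358 and 0.0353). Its 6dpi difference of RNAi-SlCLV3 from lc, -1.48, had an adjusted p of 0.0695, or 0.0380 with the block. All 78 genes passed the filter on low values, and 58 of them would have passed on the early libraries of the lines alone. The second-step counts moved with the samples used: with replicate 4 left out of every group they were 54, 63, 51, 38 and 62 in the same order of lines. In RNAi-SlCLV3 the count was 42, 52 and 55 without replicate 1, 2 or 3. With the replicate number as a block in the fit it was 68.

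**Figure D2:**
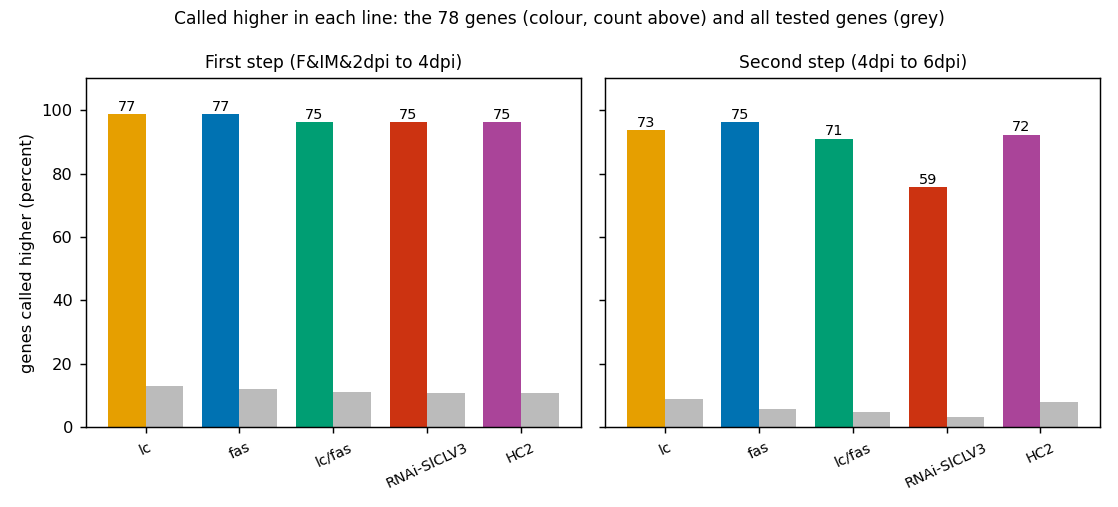
Share of genes called higher in each line (adjusted p under 0.05) at the first step (left) and the second step (right), for the 78 genes (coloured bars, with the number of genes above) and for all 20465 tested genes (grey bars). The coloured bars stand at 59 or more of 78 genes, and the grey bars between 3.26% and 13.1%.

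In WT, whose values chose the genes, the median steps were 1.52 and 1.26. The median first step was 1.54 in lc, 1.74 in fas, 1.68 in lc/fas, 1.63 in RNAi-SlCLV3 and 1.36 in HC2 on the log2(RPKM + 1) scale, and the median over all tested genes lay between -0.11 and -0.06. The median second step was 1.26 in lc, 1.26 in fas, 1.18 in lc/fas, 1.06 in RNAi-SlCLV3 and 1.26 in HC2, against medians of all tested genes between 0.00 and 0.06. The 4 libraries of each stage lay fully above those of the stage before, at both steps, for 70 genes in WT, 56 in lc, 66 in fas, 67 in lc/fas, 62 in RNAi-SlCLV3 and 67 in HC2, where 1.97%, 1.73%, 2.77%, 3.23%, 2.26% and 2.49% of tested genes did so. This order held in all 5 lines for 40 of the 78 genes and for 0.484% of tested genes. For the first step alone, the 4dpi libraries lay above all early libraries for 74 genes in WT, 67 in lc, 73 in fas, 74 in lc/fas, 72 in RNAi-SlCLV3 and 72 in HC2 (9.45%, 9.42%, 11.2%, 12.1%, 11.0% and 9.65% of tested genes). For the second step alone the counts were 73, 63, 71, 70, 66 and 71 (7.87%, 7.82%, 8.58%, 9.13%, 5.29% and 9.33% of tested genes). The WT counts follow from how the genes were chosen and are given only for comparison.

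When the thresholds that chose the genes in WT were applied to each line, 50 of the 78 met them in lc, 59 in fas, 50 in lc/fas, 41 in RNAi-SlCLV3 and 54 in HC2. Over the whole table the thresholds were met by 71 genes in lc (0.204%), 91 in fas (0.262%), 75 in lc/fas (0.216%), 74 in RNAi-SlCLV3 (0.213%) and 84 in HC2 (0.242%), so the shared genes made up 70.4%, 64.8%, 66.7%, 55.4% and 64.3% of each line's own list. In RNAi-SlCLV3, 26 genes fell short at the second step alone, 4 at the first alone and 7 at both. The counts short at the second step alone were 16 in lc, 15 in fas, 20 in lc/fas and 10 in HC2. Counted per gene, 24 of the 78 met the thresholds in all 5 lines, 21 in 4 lines, 9 in 3, 9 in 2, 5 in 1 and 10 in none. Across the 6 genotypes 151 genes met the thresholds at least once and 24 met them everywhere, and 4 genes met them in every line but not in WT. These counts compare values with a fixed threshold and are no test of a difference between genotypes.

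**Figure D3:**
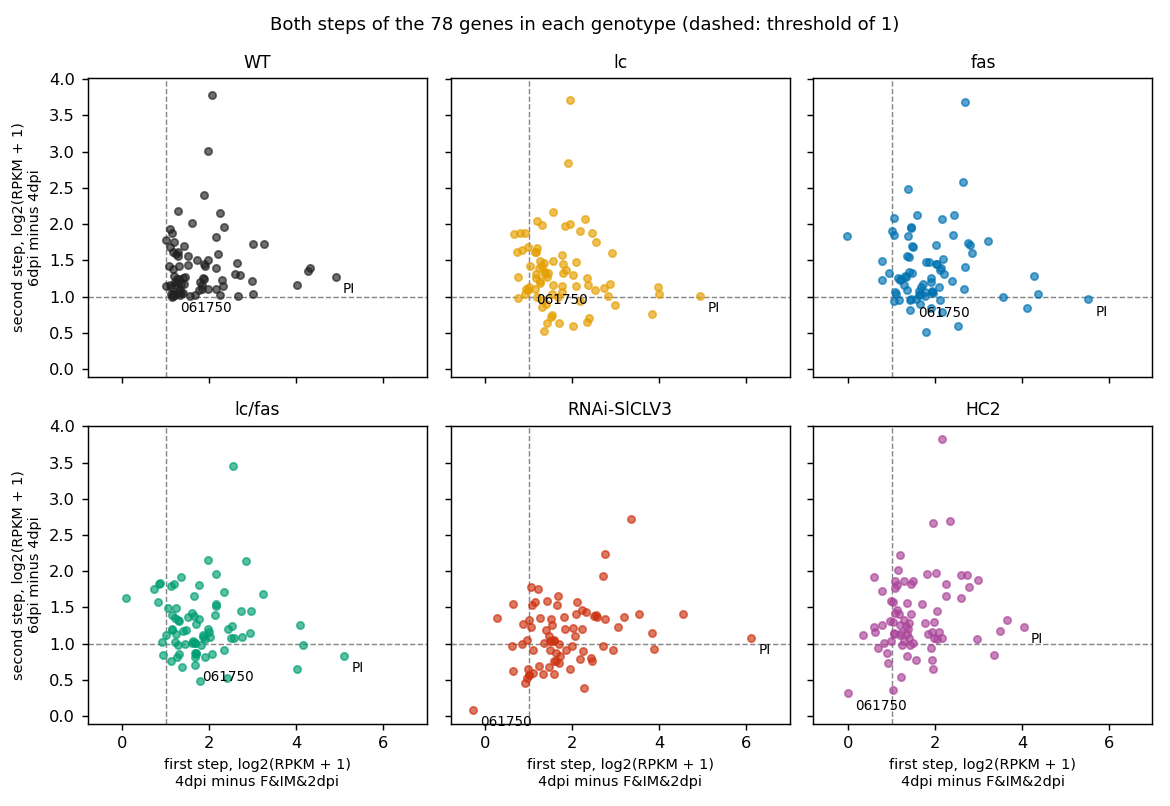
First step (horizontal axis, 4dpi minus F&IM&2dpi) against second step (vertical axis, 6dpi minus 4dpi) of each of the 78 genes, as differences of mean log2(RPKM + 1), in each genotype. In WT all points lie above and to the right of the dashed thresholds of 1 by the way the genes were chosen. The PI homolog Solyc06g059970 lies at the far right in every panel, and Solyc07g061750 lies near 0 on both axes in RNAi-SlCLV3 and near 0 on the horizontal axis in HC2.

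Floral identity genes gave the 3 largest WT differences between F&IM&2dpi and 6dpi among the genes with a listed homolog. The set held 5 of the 35 floral identity genes in the table: PI homologs Solyc06g059970 and Solyc08g067230, AP3 homolog Solyc02g084630, AG homolog Solyc02g071730 and AP2 homolog Solyc02g064960. The PI homolog Solyc06g059970 measured 2.10, 7.80, 13.4 and 12.4 RPKM in the F&IM&2dpi libraries, 250.0, 209.6, 327 and 243 RPKM at 4dpi and 505, 675, 731 and 569 RPKM at 6dpi in WT. Most of its rise came at the first step, 4.91 on the log2(RPKM + 1) scale, with a second step of 1.27. In the 20 libraries of the lines it ranged over 2.07 to 45.6 RPKM (median 7.64) at F&IM&2dpi, 152 to 455 RPKM (median 297) at 4dpi and 445 to 764 RPKM (median 605) at 6dpi. Within each line the early libraries lay below all 4dpi libraries, and the 4dpi libraries below all 6dpi libraries. The first step was called higher in all 5 lines, by 4.04 to 6.12 (SE 0.46, limma adjusted p at most 6.48e-10). The second step, 0.83 to 1.23 in the lines, passed the test in none of them (adjusted p between 0.0785 and 0.426). The fit uses a single spread per gene over all groups, and the early libraries of this gene were uneven, from 2.08 to 45.6 RPKM within lc.

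The second PI homolog, Solyc08g067230, followed the same course at a lower level. Its WT values were 0.251, 1.22, 1.51 and 1.48 RPKM in the F&IM&2dpi libraries, 39.0, 38.3, 43.7 and 32.2 RPKM at 4dpi and 80.2, 104, 126 and 91.0 RPKM at 6dpi. In the lines it measured 0.212 to 5.85 RPKM (median 1.22) at F&IM&2dpi, 17.9 to 61.0 RPKM (median 36.9) at 4dpi and 63.2 to 129.5 RPKM (median 94.6) at 6dpi. Both steps were called higher in all 5 lines, the first by 3.65 to 4.54 and the second by 1.14 to 1.40 on the log2(RPKM + 1) scale (SE 0.31, adjusted p at most 0.0106). The means of RNAi-SlCLV3 were the lowest at each stage for Solyc08g067230, 0.295 ± 0.0933, 30.1 ± 8.33 and 79.4 ± 12.6 RPKM, a level difference that passed the test against neither lc nor lc/fas at 6dpi (adjusted p 0.968 and 0.929).

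The AG homolog Solyc02g071730 rose from a low early level. WT libraries measured 0.723, 1.64, 0.693 and 1.99 RPKM in the F&IM&2dpi libraries, 41.6, 40.7, 49.2 and 40.8 RPKM at 4dpi and 95.02, 132, 126 and 109 RPKM at 6dpi. Over the lines the values were 0.491 to 8.77 RPKM (median 2.94) at F&IM&2dpi, 35.1 to 87.8 RPKM (median 61.0) at 4dpi and 87.3 to 151 RPKM (median 129) at 6dpi. Its first step was 3.49 to 4.38 in the lines (SE 0.33, adjusted p at most 3.74e-12) and its second step 0.98 to 1.18, which was called in every line except lc/fas (adjusted p 0.0671, or 0.0316 with the replicate number as a block). The call in fas was close to the threshold (adjusted p 0.0427).

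The AP3 homolog Solyc02g084630 differed from the other floral genes in that it was already well expressed at F&IM&2dpi. In WT it measured 38.9, 46.0, 39.7 and 44.6 RPKM in the F&IM&2dpi libraries, 108, 105, 124 and 90.3 RPKM at 4dpi and 203, 238, 249 and 211 RPKM at 6dpi, so the 6dpi mean was 5.32 times the early mean. The rise was called at both steps in all 5 lines, by 1.36 to 1.68 and 0.75 to 0.96 on the log2(RPKM + 1) scale (SE 0.17, adjusted p at most 0.00202). Because its second step stayed under 1 in every line, against 1.07 in WT, it is among the 10 genes that met the thresholds in no line, although the test called it in all of them. The AP2 homolog Solyc02g064960 was low throughout, at 0.0470 ± 0.0318 RPKM (SD, n = 4) in WT at F&IM&2dpi, 1.12 ± 0.277 RPKM at 4dpi and 6.24 ± 0.849 RPKM at 6dpi. Its second step exceeded its first in every genotype, 1.77 to 1.91 against 0.85 to 1.08 in the lines, and all 10 steps were called (adjusted p at most 2.41e-05).

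Of the 32 floral identity genes tested, 17 or 18 were called higher at the first step depending on the line and 5 to 7 lower, and at the second step 6 to 9 were called higher and 2 to 6 lower. Of all 20465 tested genes, 10.9% to 13.1% were called higher at the first step and 1838 to 4634 genes lower. At the second step 3.26% to 8.99% were called higher and 264 to 717 genes lower. The other AP3 homolog, Solyc04g081000, was not chosen: it went in WT from 1.77 RPKM to 105 and 189 RPKM, so that its second step was under 1.

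Photosynthesis and plastid genes gave 5 more of the 78, of 21 in the table. The LHCB3 homolog Solyc07g063600, a light-harvesting protein of photosystem II, had the highest 6dpi level of all 78 genes. WT measured 83.5, 87.3, 114 and 88.7 RPKM in the F&IM&2dpi libraries, 218, 342, 439 and 380.4 RPKM at 4dpi and 494, 704, 924 and 956 RPKM at 6dpi. In the lines it measured 58.8 to 217 RPKM (median 113) at F&IM&2dpi, 204 to 507 RPKM (median 363) at 4dpi and 491 to 1016 RPKM (median 694) at 6dpi. The first step of 1.40 to 1.92 (SE 0.27) was called in all 5 lines, and the second of 0.84 to 1.32 in all but RNAi-SlCLV3, where it was 0.84 (adjusted p 0.0698, or 0.000356 with the replicate block). The LHCA4 homolog Solyc06g069730, a light-harvesting protein of photosystem I, went in WT from 9.72 ± 2.79 to 85.4 ± 27.1 and 200.01 ± 62.0 RPKM (SD, n = 4). Its second step in RNAi-SlCLV3 was again the smallest among the lines, 0.90 (adjusted p 0.128, or 0.000961 with the block), and the steps in the other 4 lines were called.

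The RCA homolog Solyc09g011080, which encodes the activase that keeps Rubisco in its working state, had the largest WT difference between F&IM&2dpi and 6dpi of these 5 genes. In WT it measured 6.81, 10.6, 5.33 and 13.1 RPKM in the F&IM&2dpi libraries, 35.7, 50.2, 39.2 and 67.6 RPKM at 4dpi and 134, 208, 149 and 283 RPKM at 6dpi. The lines gave 5.47 to 30.3 RPKM (median 11.4) at F&IM&2dpi, 34.0 to 205 RPKM (median 61.7) at 4dpi and 145 to 485 RPKM (median 224) at 6dpi. Both steps were called in all 5 lines, the first by 2.12 to 2.77 and the second by 1.58 to 2.12 on the log2(RPKM + 1) scale (SE 0.32, adjusted p at most 0.000599). RNAi-SlCLV3 had the highest mean at each stage, 25.4 ± 5.10, 121 ± 59.3 and 358 ± 139.5 RPKM, and its 4 early libraries, from 18.5 to 30.3 RPKM, lay above all early libraries of WT, lc, fas and lc/fas. At 6dpi the difference from lc and from lc/fas did not pass the test (adjusted p 0.676 and 0.181).

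The PORB homolog Solyc10g006900, an enzyme of chlorophyll synthesis, and the GDCH homolog Solyc08g007040, a subunit of the glycine decarboxylase of photorespiration, completed the group. Solyc10g006900 went in WT from 12.6 ± 4.16 to 52.4 ± 14.1 and 113 ± 30.5 RPKM, and Solyc08g007040 from 2.36 ± 0.899 to 15.5 ± 3.18 and 35.3 ± 5.42 RPKM (SD, n = 4). Each was called at both steps in every line, with second steps of 0.77 to 1.16 for Solyc10g006900 and 0.77 to 1.26 for Solyc08g007040, smallest in RNAi-SlCLV3 for each. Among all 21 plastid genes tested, 18 or 19 were called higher at the first step and 0 or 1 lower, and at the second step 13 in lc, 14 in fas, 12 in lc/fas, 6 in RNAi-SlCLV3 and 12 in HC2 were called higher and 0 lower. Their summed level ranged from 2147 to 3504 RPKM in the early libraries and from 5348 to 7784 RPKM at 6dpi. The shares called higher over all tested genes were 10.9% to 13.1% at the first step and 3.26% to 8.99% at the second.

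**Figure D4:**
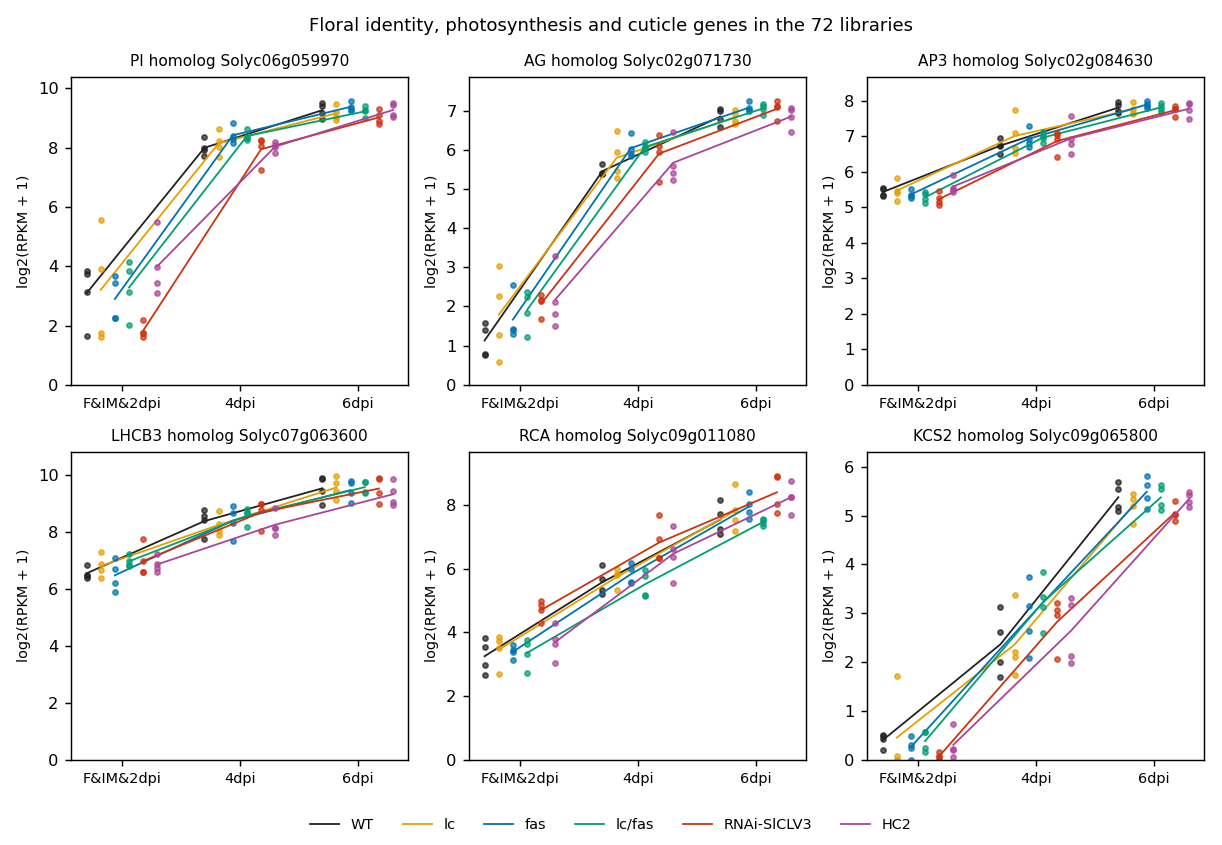
log2(RPKM + 1) of 6 of the genes in all 72 libraries (points, 4 per genotype and stage) with lines through the group means. The PI and AG homologs climb mostly before 4dpi, the KCS2 homolog mostly after it in WT, lc and HC2, and the AP3 and LHCB3 homologs start from higher early levels. The RCA homolog has its highest group means in RNAi-SlCLV3.

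The cuticle was represented by 2 of 20 genes. The KCS2 homolog Solyc09g065800 belongs to the enzymes that elongate very-long-chain fatty acids. WT gave 0.139, 0.395, 0.334 and 0.410 RPKM in the F&IM&2dpi libraries, 3.01, 2.25, 7.79 and 5.11 RPKM at 4dpi and 35.0, 33.1, 50.7 and 45.9 RPKM at 6dpi, so its second step, 3.01 on the log2(RPKM + 1) scale, was larger than its first, 1.97. In the lines it measured 0 to 2.297 RPKM (median 0.127) at F&IM&2dpi, 2.34 to 13.4 RPKM (median 7.05) at 4dpi and 27.4 to 55.5 RPKM (median 38.1) at 6dpi. The early values rest on few reads, 1 to 7 per WT library, and so does any ratio to them. The first step was 1.91 to 2.85 and the second 2.15 to 2.85 in the lines (SE 0.31), all called with adjusted p at most 3.19e-06, and the gene met the WT thresholds in all 5 lines. The CER3 homolog Solyc03g117800, needed to make wax alkanes, went in WT from 0.423 ± 0.161 to 2.84 ± 0.790 and 7.51 ± 0.551 RPKM (SD, n = 4). All of its 10 steps in the lines were called, with 1.36 to 1.71 at the first and 0.99 to 1.27 at the second (SE 0.16, adjusted p at most 1.51e-05). Of the whole cuticle list, these 2 genes included, 9 to 13 of 20 genes were called higher at the first step and 1 to 3 lower, and 4 or 5 higher and 2 to 4 lower at the second. Among all 20465 tested genes, 10.9% to 13.1% were called higher and 1838 to 4634 genes lower at the first step. The second step gave 3.26% to 8.99% higher and 264 to 717 genes lower.

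A terpene synthase and 2 hormone genes were also in the set. The TPS21 homolog Solyc12g006570, a sesquiterpene synthase that in Arabidopsis acts in flowers, went in WT from 8.52 ± 3.46 to 75.2 ± 27.4 and 148 ± 22.1 RPKM (SD, n = 4), and all 10 steps were called in the lines (first step 2.71 to 3.56, second step 0.88 to 1.15, SE 0.27, adjusted p at most 0.0245). The ABA2 homolog Solyc12g056600, an enzyme of abscisic acid synthesis, went from 2.51 ± 0.278 to 7.99 ± 1.63 and 17.7 ± 3.85 RPKM. The DFL1 homolog Solyc07g053030, of the family that couples auxin to amino acids, went from 0.537 ± 0.453 to 2.15 ± 0.263 and 7.62 ± 2.49 RPKM. The ABA2 and DFL1 homologs were each called at both steps in every line yet met the thresholds in none. For Solyc12g056600 the second step was 0.68 to 0.96 in the lines. For Solyc07g053030 the first step was 0.60 to 0.83, and its largest adjusted p, 0.0395 in HC2, was close to the threshold. In the wider lists, 1 to 3 of the 4 trichome and terpene genes tested, 2 to 5 of 18 auxin genes and 2 or 3 of 11 abscisic acid and dehydration genes were called higher at the first step, and 1 or 2, 1 to 3 and 2 or 3 at the second. Lower calls among the auxin genes numbered 6 or 7 at the first step and 3 to 5 at the second, against 1 or 2 and 0 or 1 among the abscisic acid genes and 0 among the terpene genes. Over all 20465 tested genes, 10.9% to 13.1% were called higher at the first step and 3.26% to 8.99% at the second. Lower calls over all tested genes numbered 1838 to 4634 at the first step, depending on the line, and 264 to 717 at the second.

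Another 15 genes had a listed homolog outside these lists. The most abundant was Solyc12g014630, a homolog of a protease inhibitor and lipid-transfer family protein, at 62.0 ± 13.7, 169 ± 53.9 and 397 ± 89.4 RPKM in WT. It was called at both steps in all lines but RNAi-SlCLV3, where the second step was 0.65 (adjusted p 0.227, or 0.0179 with the block). The AGO4 homolog Solyc01g096750, which acts in RNA-directed DNA methylation, went in WT from 4.77 ± 1.00 to 12.3 ± 3.21 and 30.6 ± 3.67 RPKM. Its first step was 1.18 in WT and 1.26 in lc, and 1.94, 2.34, 2.19 and 1.84 in fas, lc/fas, RNAi-SlCLV3 and HC2. The difference between lines in its course did not pass the test (F = 3.18, adjusted p 0.554), although with the replicate block it did (adjusted p 0.0499). The MLP-like homolog Solyc07g008710, of the major latex protein family, was lower in RNAi-SlCLV3 at each stage, at 2.10 ± 0.403, 6.25 ± 1.081 and 23.3 ± 3.01 RPKM, than in WT at 4.09 ± 1.02, 16.3 ± 3.06 and 36.7 ± 13.4 RPKM. As WT values chose the gene, its difference from WT was not tested. The 6dpi difference of RNAi-SlCLV3 from lc/fas, -0.67, did not pass (adjusted p 0.0843, or 0.0118 with the block), nor did that from lc, -0.59 (adjusted p 0.188, or 0.0384 with the block). The IQD13 homolog Solyc08g014280, a calmodulin-binding protein linked to microtubules, went from 5.17 ± 1.65 to 26.4 ± 1.77 RPKM in WT and had a second step of 0.45 in RNAi-SlCLV3 (adjusted p 0.167).

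Whether the course differed between the lines was tested by the line-by-stage interaction over the 5 lines. It passed for 2 of the 78 genes, Solyc07g061750 and Solyc07g043130, and for 0.288% of all tested genes. In 5 pairs of lines compared at 6dpi, 1 of the 78 passed for HC2 against fas, 0 for lc/fas against fas, 0 for lc/fas against lc, 5 for RNAi-SlCLV3 against lc and 5 for RNAi-SlCLV3 against lc/fas, where 0.792%, 0.127%, 0.00977%, 1.50% and 1.51% of all tested genes passed in either direction. At an unadjusted p under 0.05 the counts were 13, 0, 3, 16 and 13 of 78, where 5.76%, 1.47%, 1.32%, 8.27% and 8.68% of all tested genes had such a p. For the rise from F&IM&2dpi to 6dpi in the same pairs, 2, 0, 0, 1 and 1 passed (0.112%, 0.00%, 0.00977%, 0.303% and 0.112% of all tested genes), and 9, 2, 1, 9 and 8 had an unadjusted p under 0.05 (2.36%, 0.738%, 1.40%, 5.71% and 3.84% of all tested genes).

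Solyc07g061750, an ankyrin repeat protein, was the gene whose course differed most between the lines. In WT it measured 0.167, 1.59, 0 and 0.493 RPKM in the F&IM&2dpi libraries, 1.77, 2.46, 2.07 and 2.92 RPKM at 4dpi and 5.46, 5.81, 5.01 and 6.14 RPKM at 6dpi. In lc it measured 0.375, 0.439, 0.663 and 0.750 RPKM at F&IM&2dpi, 1.95, 2.49, 1.93 and 2.05 RPKM at 4dpi and 5.89, 6.02, 6.05 and 5.14 RPKM at 6dpi. The fas libraries had 0.567, 1.11, 1.09 and 1.15 RPKM, then 3.58, 3.93, 4.91 and 4.87 RPKM and then 10.04, 8.87, 8.42 and 9.56 RPKM. In these 3 genotypes each stage lay fully above the one before. In lc/fas, where the stages did not overlap either, the values were 1.02, 0.611, 0.785 and 1.34 RPKM, 4.86, 4.47, 6.09 and 5.05 RPKM and 12.6, 6.71, 8.96 and 8.37 RPKM at the 3 stages. RNAi-SlCLV3 had 35.3, 39.7, 50.6 and 51.7 RPKM at F&IM&2dpi, 37.4, 31.5, 35.4 and 39.1 RPKM at 4dpi and 44.6, 36.5, 34.3 and 37.1 RPKM at 6dpi. HC2 had 31.6, 20.04, 36.0 and 27.1 RPKM, 43.6, 21.5, 21.6 and 29.4 RPKM and 52.6, 25.6, 26.0 and 41.5 RPKM. All 24 libraries of the 2 transgenic lines lay above all 48 libraries of the other genotypes, and their stages overlapped.

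The interaction for Solyc07g061750 had F = 25.2 (limma adjusted p 4.8e-11). Its rise was smaller in HC2 than in fas (difference -2.08, SE 0.26, adjusted p 5.59e-07) on the log2(RPKM + 1) scale, and the difference was -2.33 for RNAi-SlCLV3 against lc and -2.57 against lc/fas (adjusted p 3.17e-08 and 1.93e-09). The steps in the transgenic lines, -0.28 and 0.08 in RNAi-SlCLV3 and -0.01 and 0.31 in HC2, did not pass the test. At 6dpi its level was higher by 1.81 in HC2 than in fas, by 2.52 in RNAi-SlCLV3 than in lc and by 1.97 than in lc/fas. The high level was shared by the 2 transgenic lines, of which only RNAi-SlCLV3 carries the hairpin and only HC2 carries the fas allele with the added SlCLV3 copy. How far it goes with transformation itself cannot be told apart in this design, which has no line with an unrelated transgene among the libraries used here.

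The RPT2 homolog Solyc07g043130, of the NPH3 family that acts in phototropism, was the other gene whose course differed. Its early values were 1.91, 2.21, 2.06 and 0.703 RPKM in WT, 1.33, 1.15, 1.63 and 1.09 RPKM in fas, 3.52, 4.76, 8.91 and 3.40 RPKM in RNAi-SlCLV3 and 8.18, 7.47, 10.6 and 7.73 RPKM in HC2. The early HC2 libraries lay above all early libraries of WT, lc, fas and lc/fas. At 6dpi the values were 15.7, 20.2, 24.7 and 19.9 RPKM in WT, 16.1, 23.0, 20.2 and 19.5 RPKM in fas, 16.2, 22.3, 20.3 and 25.7 RPKM in RNAi-SlCLV3 and 32.9, 29.5, 28.1 and 34.4 RPKM in HC2. The mean in lc went from 2.22 ± 0.922 to 21.4 ± 2.15 RPKM and in lc/fas from 1.83 ± 0.683 to 21.0 ± 3.46 RPKM (SD, n = 4). The interaction had F = 6.34 (adjusted p 0.00777), and the rise in HC2 was smaller than in fas (difference -1.39, SE 0.29, adjusted p 0.0170). Neither call was firm: the interaction was lost without replicate 1, 3 or 4 and the difference of the rise without any of the 4 replicates, with adjusted p up to 0.234 and 0.325 over the alternatives.

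**Figure D5:**
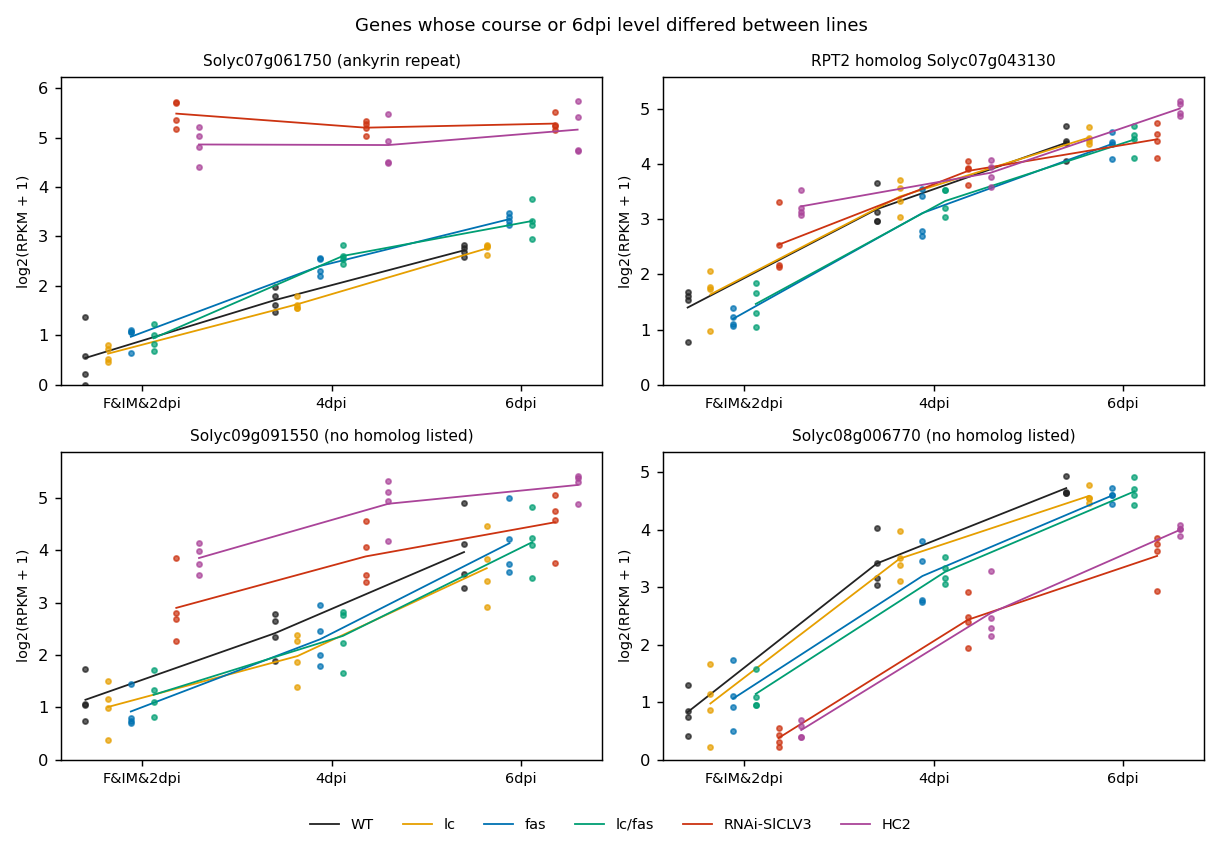
log2(RPKM + 1) of 4 genes in all 72 libraries (points) with lines through the group means. Solyc07g061750 is flat and high in RNAi-SlCLV3 and HC2 and rises in the other 4 genotypes, Solyc07g043130 starts higher in these 2 lines, Solyc09g091550 is highest in HC2 at all stages and Solyc08g006770 is lowest in RNAi-SlCLV3 and HC2 at 4dpi and 6dpi.

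Solyc09g091550, which has no listed homolog and was picked out after its values were seen, had a like pattern. HC2 measured 16.7, 12.4, 14.96 and 10.6 RPKM at F&IM&2dpi, 39.2, 29.7, 17.2 and 33.6 RPKM at 4dpi and 40.8, 42.2, 38.6 and 28.5 RPKM at 6dpi. The fas libraries measured 0.661, 0.737, 1.72 and 0.631 RPKM, 2.97, 2.45, 6.77 and 4.53 RPKM and 11.0, 17.6, 31.0 and 12.3 RPKM. RNAi-SlCLV3 had means between the means of fas and HC2 at F&IM&2dpi and 4dpi, 7.15 ± 4.25 and 14.6 ± 6.01 RPKM. The 6dpi difference of HC2 from fas was 1.11 (SE 0.34, adjusted p 0.177), and with the replicate number as a block it passed the test (adjusted p 0.0308). The block also brought its interaction (adjusted p 0.501, or 0.0477) and its smaller rise in HC2 than in fas (-1.82, adjusted p 0.244, or 0.0332) past the threshold. At 6dpi, replicate 3 was the highest of its group in WT, lc, fas and lc/fas, at 28.9, 21.1, 31.0 and 27.3 RPKM.

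Of the genes called at 6dpi in RNAi-SlCLV3, 3 were lower and 2 higher than in lc, and 4 were lower and 1 higher than in lc/fas. Over all tested genes, 117 were called lower and 190 higher against lc, and 140 lower and 168 higher against lc/fas. Solyc08g006770, without a listed homolog, measured 6.60, 11.4, 12.4 and 13.5 RPKM in RNAi-SlCLV3 against 22.5, 22.4, 20.9 and 26.5 RPKM in lc and 29.2, 20.5, 25.2 and 23.2 RPKM in lc/fas, with no overlap. The difference was -1.04 from lc and -1.12 from lc/fas (SE 0.24, adjusted p 0.00881 and 0.00386). Solyc07g007260, also without a listed homolog, measured 2.54, 1.74, 2.99 and 3.32 RPKM in RNAi-SlCLV3, 5.01, 5.77, 10.2 and 8.36 RPKM in lc and 6.48, 4.19, 9.34 and 6.61 RPKM in lc/fas, which gave differences of -1.17 and -1.05 (SE 0.23, adjusted p 0.000872 and 0.00395). In the other direction Solyc01g108800 was higher in RNAi-SlCLV3, at 24.7, 27.3, 16.6 and 29.6 RPKM, than in lc, at 14.1, 13.6, 15.4 and 18.01 RPKM, with replicate 3 of RNAi-SlCLV3 inside the range of lc (difference 0.63, SE 0.17, adjusted p 0.0347). These calls moved with the processing, with adjusted p up to 0.282 for Solyc08g006770 and 0.0544 for Solyc07g007260 against lc, up to 0.319 and 0.120 against lc/fas, and up to 0.374 for Solyc01g108800. Besides these and Solyc07g061750, 1 further gene passed against lc and 2 against lc/fas, all of them lower and without a listed homolog. Both comparisons of RNAi-SlCLV3 use the same RNAi-SlCLV3 libraries. Despite the lower levels, Solyc08g006770 rose at both steps in all 5 lines (first step 2.03 to 2.52, second step 1.09 to 1.45).

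No gene of the set passed the test at 6dpi between lc/fas and either single line. The differences of lc/fas from fas ran from -0.49 to 0.33 over the 78 genes with a median of -0.03, and those from lc from -0.36 to 0.76 with a median of 0.01. The median half-width of the unadjusted 95% interval of such a difference was 0.51 on the log2(RPKM + 1) scale. A call after adjustment over all tested genes needs a larger difference still. The absence of calls therefore does not exclude differences above 0.51 for the typical gene. HC2 against fas ran from -0.84 to 1.81 with 35 genes above 0 and 43 below. For the rise from F&IM&2dpi to 6dpi, 69 of the 78 genes had a smaller rise in lc/fas than in fas (median difference -0.17), where 46.9% of all tested genes did. In HC2, 60 had a smaller rise than in fas (median difference -0.27), where 47.2% of all tested genes did. These 2 comparisons share the fas libraries. In the pairs that leave out the fas line, the rise was smaller for 40 genes in lc/fas than in lc. It was smaller in RNAi-SlCLV3 for 46 genes against lc and 48 against lc/fas. The median differences in these pairs were -0.01, -0.12 and -0.09, against medians of all tested genes of 0.010, -0.001 and -0.009. The median half-width was 0.71 in each pair.

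Annotation and position were not used to choose the 78 genes. Of them 30 had an Arabidopsis homolog in the study's tables and 48 did not, where 3815 of all 34727 genes had one. The genes without a listed homolog had a median of 19.6 RPKM in WT at 6dpi, the 15 with a homolog outside the lists 30.6 RPKM and the 15 in the lists 113 RPKM. Called higher in all 10 steps of the lines were 34 of the 48, 7 of the 15 outside the lists and 11 of the 15 in them. Of all 78, 52 were called higher in all 10 steps, 73 at the first step in all 5 lines and 54 at the second, where 0.782%, 7.40% and 2.22% of tested genes were. By the chromosome number in the identifiers, 12 of the 78 (15.4%) were on chromosome 7, which holds 7.18% of the genes in the table, 10 on chromosome 2, 9 on chromosome 8 and 2 on chromosome 11. Only 2 pairs lay within 10 places of each other in the order of the table, Solyc01g109670 with Solyc01g109690, 2 places apart, and Solyc08g067230 with Solyc08g067330, 10 places apart. No gene of the lists for meristem and organ patterning, cell division, phenylpropanoid and flavonoid, anther and pollen, gibberellin, sterol and brassinosteroid, jasmonate, cell wall and aquaporin, or sugar and starch was among the 78. The rule took 0.225% of the table, so the absence of a gene from lists this short carries little weight. Of the 33 meristem and organ patterning genes, 17 to 20 were called lower at the first step in the lines and 5 or 6 higher. At that step 1838 to 4634 of all 20465 tested genes were called lower, depending on the line, and 10.9% to 13.1% higher.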

How the data were processed

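The authors prepared strand-specific mRNA libraries from 72 samples, sequenced them as short single-end reads and mapped these to the cultivated tomato genome with TopHat2, which runs Bowtie2, using the ITAG2.3 gene models. Their versions are not given in the sources used here. Sense-strand reads of each gene were turned into RPKM by the authors, who deposited 1 table for all samples. Reads of Solanum pimpinellifolium were therefore aligned to another species. For 34723 of the 34727 genes the values were whole multiples of a single read or 0, so reads per gene were recovered to describe depth only (1085200 values under 500 reads, all whole within 0.01).

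The 78 genes and all gene lists were chosen with earlier results of these data known. WT libraries chose the genes and entered no test. The other 60 libraries were fitted with limma 3.58.1 (R 4.3.3) with trend on log2(RPKM + 1) over 15 group means, for 20465 genes (those reaching 1 RPKM in 4 or more of these libraries), and p-values were adjusted over all genes tested (threshold 0.05). The procedure was tested on simulated data. Python 3.11.15, numpy 2.4.6, pandas 2.3.3 and matplotlib 3.10.9 did the rest. Named were genes with a listed homolog of known role that were in a gene list, were among the 8 highest in WT at 6dpi, the 5 largest WT rises or the 5 smallest interaction p-values, or were called between lines at 6dpi, plus at most 2 genes without a listed homolog per direction. Solyc09g091550 and Solyc10g087010 were added after their values were seen.

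Same-numbered replicates deviated together: in the 10 steps and in the 6dpi comparisons of HC2 with fas and of lc/fas with fas and lc, every pair's correlation was over 0.1 (mean over all groups 0.24, against -0.08 for unlike numbers), but not in the comparisons of RNAi-SlCLV3 at 6dpi or of the rises. Values with the replicate number as a block are given beside the genes described where they change a call. Alternatives were another pseudocount (0.1), scaling, filter (mean of at least 5 RPKM), sample set, the block and leaving out each replicate. No table of gene sequences matched the identifiers, so none are shown.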

Additional observations from a re-analysis of the deposited data

Results flagged for a closer look

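Over 198 groups of 4 libraries, 180 for 10 single genes and 18 for the median over the 78 genes, 8 groups had 1 library far from the other 3 (by Dixon's ratio at its 95% critical value), where chance gives about 1 group in 20. All were of single genes: the LHCB3 homolog Solyc07g063600 in WT at F&IM&2dpi (114 RPKM), the PI homolog Solyc08g067230 in HC2 at F&IM&2dpi (5.85 RPKM) and in fas at 4dpi (54.0 RPKM), the AG homolog Solyc02g071730 in WT at 4dpi (49.2 RPKM) and in fas at F&IM&2dpi (4.82 RPKM), the KCS2 homolog Solyc09g065800 in lc at F&IM&2dpi (2.297 RPKM), Solyc07g061750 in fas at F&IM&2dpi (0.567 RPKM) and Solyc09g091550 in fas at F&IM&2dpi (1.72 RPKM).

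The course over the stages differed between the 5 lines for Solyc07g061750 (F = 25.2) and for the RPT2 homolog Solyc07g043130 (F = 6.34). The rise of Solyc07g061750 differed by -2.08 for HC2 minus fas, -2.33 for RNAi-SlCLV3 minus lc and -2.57 for RNAi-SlCLV3 minus lc/fas on the log2(RPKM + 1) scale. The rise of Solyc07g043130 differed by -1.39 for HC2 minus fas.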

How the results depend on the processing

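Over 27 counts and 294 alternatives, 266 values lay within 1.5 times the reported one. With log2(RPKM + 0.1), 203 genes met the rule in WT, all 78 among them, and the 6dpi counts were 1 for RNAi-SlCLV3 against lc, 1 against lc/fas, and 2 for the rise of RNAi-SlCLV3 against lc. With a mean of at least 5 RPKM both RNAi-SlCLV3 counts at 6dpi were 2. With only the groups compared, HC2 against fas gave 3 and RNAi-SlCLV3 against lc/fas gave 3. Quantile normalization gave 2 for HC2 against fas. With the replicate block the counts were 2 for HC2 against fas at 6dpi, 2 for the rise of RNAi-SlCLV3 against lc and 4 for the interaction, and the second step in RNAi-SlCLV3 was called for 68 genes. The cause of these shifts was not tested.

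Leaving out each replicate in turn gave 38 to 55 genes for the second step in RNAi-SlCLV3, 1 to 2 for HC2 against fas, 2 to 6 for RNAi-SlCLV3 against lc and 1 to 6 against lc/fas at 6dpi, 1 for the rise of HC2 against fas, 1 to 2 for that of RNAi-SlCLV3 against lc/fas and 1 to 2 for the interaction. These fits have fewer samples. The rule in WT gave 74 to 98 genes, with 65 to 72 of the 78 among them. For the 24 named genes, 2686 of 2824 alternative results kept their direction and side of the threshold, 138 were no longer past it and 0 changed direction. Depth limits the early values, with a median of 10 reads per gene and library in WT.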
